A study of Rattus norvegicus with 20 samples.

Results

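Among 36685 transcript clusters measured in rat subcutaneous tissue, 177 stood highest with rosiglitazone by a fixed rule. A transcript cluster is the set of array probes assigned to 1 annotated locus. The rule asked that the mean of the rosiglitazone arrays lie at least 1 log2 unit (2-fold) above each of the 3 other group means, and that the lowest rosiglitazone array exceed the highest of the 15 other arrays. The members were therefore chosen by their own rosiglitazone values, and those differences are given below as a description with no test. The order of the arrays alone was met by 685 clusters (1.87% of all), the difference of the means alone by 232.

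The tissue came from male ZDF rats, labelled as the Zucker strain, and was measured on 20 Rat Gene 2.1 ST arrays (Affymetrix), 5 per group. The lean control group received standard chow, and the obese group a stock diet for 6 weeks. The other groups are labelled rosiglitazone and resveratrol; neither dose nor duration is stated, nor whether these rats were obese. The arrays of a group are labelled biological replicates, and nothing else in the labels says how the animals were assigned.

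Rosiglitazone is a thiazolidinedione that binds PPAR gamma, the nuclear receptor that drives the formation of fat cells and their uptake and storage of lipid. PPAR gamma acts as a heterodimer with RXR on DNA elements made of a pair of direct repeats with 1 base between them, called DR1. Resveratrol is a plant polyphenol. In a mitochondrion, fatty acids and pyruvate are broken down to acetyl-CoA, which enters the citric acid cycle, and the electrons released pass to the respiratory chain. In fat tissue, citrate can also leave the mitochondrion and serve the synthesis of new fatty acids.

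Of the 177 clusters, 121 had 1 gene symbol (120 distinct symbols, since Cbr1 was measured by 2 clusters), 5 had several symbols and 51 were not listed in the annotation used here. The number of clusters is not a number of genes. For example, 10 members lay within a run of 13 consecutive cluster numbers, of which only Lpcat3, an enzyme that remodels phospholipids, was named. By role, 61 of the named members belonged to mitochondria or to fatty acid oxidation: 25 to fatty acid oxidation, 15 to pyruvate oxidation and the citric acid cycle, 7 to the respiratory chain and 14 to other mitochondrial functions. For short these 61 are called mitochondrial below, although some of the oxidation members, such as Slc27a1 and Fabp3, act outside mitochondria. A further 14 served lipid and sugar metabolism outside oxidation, 19 were put in a matrix and secreted group, and 27 were not grouped. Some of the matrix group are neither, such as the membrane protein Lrrc15 and P4ha3, an enzyme that acts on collagen. These roles were assigned from general knowledge after the members had been seen.

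The members stood highest with rosiglitazone by choice, yet they were not level across the 3 other groups. The median of the 177 members per array was 7.11 ± 0.08 log2 units with rosiglitazone (mean ± SD over arrays, n = 5), 5.62 ± 0.10 with resveratrol, 5.21 ± 0.22 in lean and 5.01 ± 0.36 in obese rats. The rosiglitazone arrays read 6.98 to 7.20, and the highest of the other arrays 5.72. Resveratrol was the highest of the 3 other groups for 136 members, lean for 31 and obese for 10. Obese was the lowest for 115 members. The full order obese, lean, resveratrol, rosiglitazone held in 91 of 177, with rosiglitazone last by the rule. None of these counts was compared with all clusters. Of the members, 175 lay at or above the median level of all clusters. Among such clusters 67.4% were higher with resveratrol than in obese rats, and 61.7% were lower in obese than in lean rats. The median member was 2.44-fold above the highest other group (range 2.003 to 12.1) and 3.51-fold above obese (2.08 to 40.4). In bulk tissue a change in the number of cells of a type and a change in RNA per cell cannot be told apart.

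**Figure D1:**
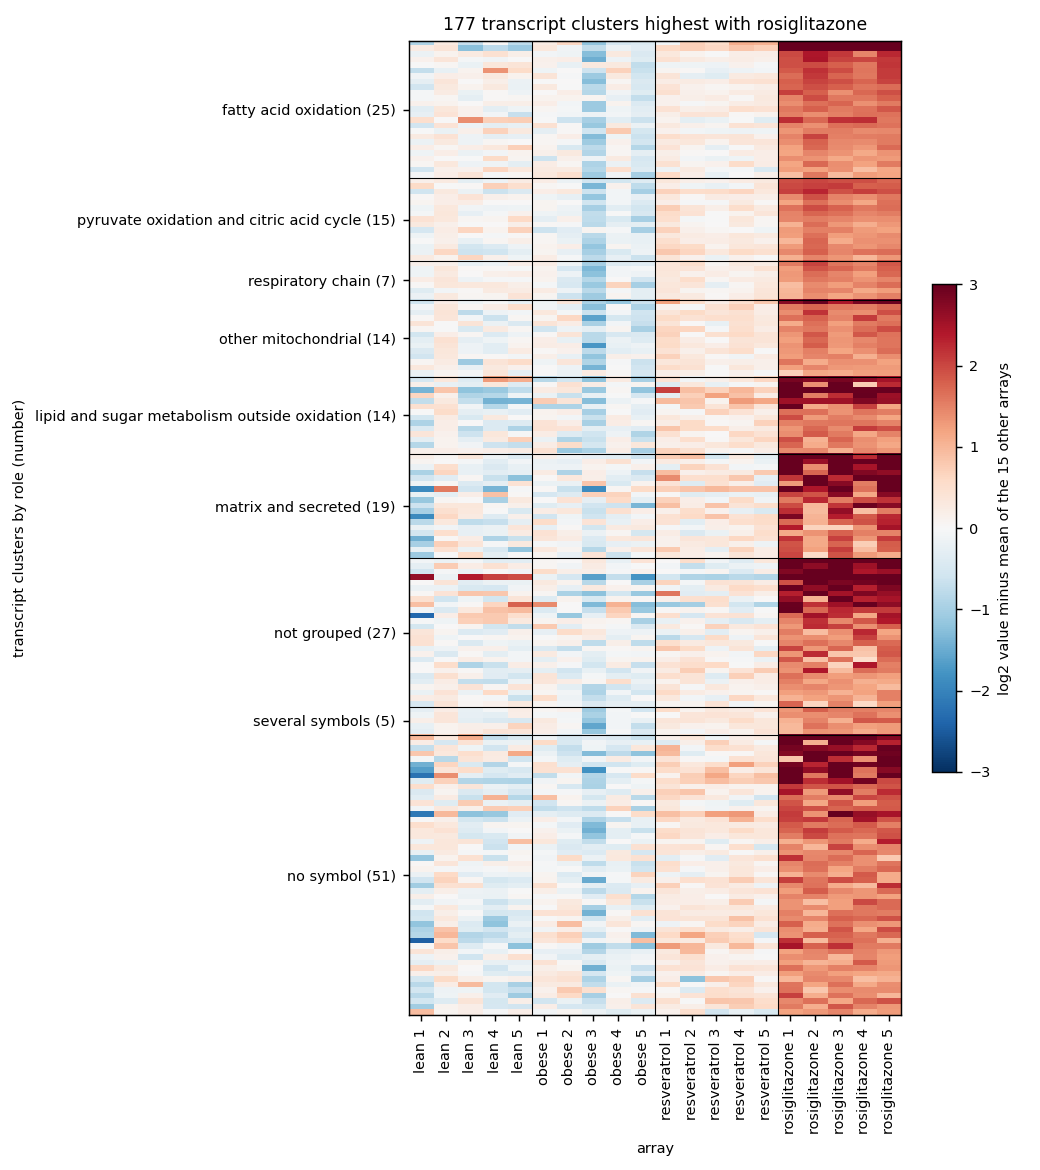
Each line is 1 of the 177 clusters, grouped by role, and each column is 1 of the 20 arrays; colour gives the log2 value minus the mean of the 15 arrays outside the rosiglitazone group. The 5 rosiglitazone columns are red throughout, as the rule requires. Obese 3 is the bluest column in the 4 mitochondrial blocks, and the matrix block is less even among the rosiglitazone arrays than the mitochondrial blocks.

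A set of sequences is shown here because a DR1 is the element that PPAR gamma with RXR binds. RefSeq promoters of the assembly GRCr8 (250 bases before to 50 after the start of a gene) were matched for 106 of the genes of the members. Both strands were searched for the letters AGGTCA, any 1 base and AGGTCA again, with at most 2 of the 12 fixed letters differing. A match was present in 7 of 106 member promoters (6.60%) and in 370 of 11727 promoters of all genes on the array (3.16%). All 7 lay among the 55 mitochondrial promoters (12.7%), and 0 among the 16 of the matrix group. At the overall share of 3.16%, 0 of 16 promoters shows no difference. The matches are printed along the motif with 10 bases to either side, and capitals mark the letters equal to the motif.

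Acadvl: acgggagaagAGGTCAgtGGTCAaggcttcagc
Echs1: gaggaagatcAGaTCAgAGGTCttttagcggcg
Slc25a20: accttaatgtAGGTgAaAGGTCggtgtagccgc
Etfa: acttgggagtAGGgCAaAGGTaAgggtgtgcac
Trap1: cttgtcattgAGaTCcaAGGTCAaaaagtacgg
Aadat: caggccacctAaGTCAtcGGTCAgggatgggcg
Car5b: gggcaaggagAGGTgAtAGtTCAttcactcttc

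The stretch of Acadvl lies at chr10:55236700-55236732 on the minus strand, that of Echs1 at chr1:204333639-204333671 on the plus strand, and that of Slc25a20 at chr8:118243578-118243610 on the plus strand. Etfa is shown at chr8:64788097-64788129 and Trap1 at chr10:11971063-11971095, both on the plus strand. Aadat is shown at chr16:34555349-34555381 on the plus strand and Car5b at chrX:34118887-34118919 on the minus strand. Acadvl differed from the motif in 1 letter and the other 6 in 2. Its match began 17 bases before the start of the gene, while that of Slc25a20 began 16 bases after it. A match of letters is not evidence of binding.

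The 250 bases before the start of Acadvl (chr10:55236706-55236955, minus strand) are printed because they hold the closest match, in capitals. Those of Uqcrc1 (chr8:118467973-118468222, plus strand) hold a pair of matches to the site of NRF1, the palindrome made of GCGCA and its reverse complement TGCGC. NRF1 is a factor that regulates respiratory chain genes. Each match differed in 1 letter.

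Acadvl: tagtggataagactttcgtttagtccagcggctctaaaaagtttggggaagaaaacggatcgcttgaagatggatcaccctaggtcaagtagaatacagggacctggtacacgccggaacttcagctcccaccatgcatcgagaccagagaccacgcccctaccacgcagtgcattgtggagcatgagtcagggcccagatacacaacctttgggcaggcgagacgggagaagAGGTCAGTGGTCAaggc
Uqcrc1: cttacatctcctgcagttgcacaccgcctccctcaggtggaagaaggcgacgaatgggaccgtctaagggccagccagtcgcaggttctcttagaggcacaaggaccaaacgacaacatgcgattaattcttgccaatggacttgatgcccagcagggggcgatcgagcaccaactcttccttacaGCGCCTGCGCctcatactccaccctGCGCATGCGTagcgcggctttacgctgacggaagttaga

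With 1 letter allowed to differ and both strands searched, the NRF1 letters were found in 9 of 106 member promoters (8.49%), 7 of them among the 55 mitochondrial ones, and in 1047 of 11727 promoters overall (8.93%). The share among members was thus close to that of all promoters. Among the 55 mitochondrial promoters it was 12.7%, the same as for DR1, and 0 of the 16 matrix promoters had a match. TCAAGGTCA, the site of the estrogen-related receptors, was searched on both strands with no letter differing. It was in 0 of 106 member promoters and in 33 of 11727 overall (0.281%).

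Fatty acid oxidation supplied the most complete series of steps. The members covered uptake into the cell (Slc27a1), binding in the cytosol (Fabp3), entry into mitochondria through the carnitine shuttle (Cpt1b, Slc25a20, Cpt2), and each of the steps of the beta-oxidation spiral. The acyl-CoA dehydrogenases were Acadvl, Acadl, Acadm and Acads, which take very long, long, medium and short chains. The later steps were represented by Hadha and Hadhb, the subunits of the trifunctional protein, by Echs1 and Hadh, and by the thiolase Acaa2. Decr1, Decr2 and Eci2 handle unsaturated chains, and Etfa and Etfdh carry the electrons on to ubiquinone. On a list of 42 oxidation and ketone body genes, 37 were measured and 18 were members (48.6%), against 0.816% of all clusters with 1 symbol.

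Fabp3, the fatty acid-binding protein of heart and muscle, showed the widest margin of the group. It read 8.85, 8.61, 8.44, 9.05 and 8.69 log2 units on the 5 rosiglitazone arrays and 4.68, 5.49, 5.31, 5.86 and 5.82 with resveratrol. In lean rats it read 3.84, 5.04, 4.08, 4.80 and 4.01, and in obese rats 4.99, 5.38, 3.59, 4.26 and 4.36. The 3 other groups overlapped one another, and the rosiglitazone mean lay 9.81-fold above that of resveratrol. Cpt1b, the muscle form of the enzyme that commits long-chain fatty acids to mitochondrial import, read 8.13, 8.35, 7.84, 7.92 and 8.01 with rosiglitazone. In lean rats it read 3.59 to 5.23, in obese rats 4.10 to 5.14 and with resveratrol 5.44 to 5.67. The resveratrol arrays thus stood above every lean and obese array, and rosiglitazone lay 5.72-fold above resveratrol. Cpt1a, the liver form, was measured and was no member, averaging 5.23 ± 0.24 with rosiglitazone and 5.01 ± 0.57 in obese rats.

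Among the dehydrogenases, Acadl read 9.36, 9.82, 9.52, 8.86 and 9.66 with rosiglitazone, 7.39 to 7.71 with resveratrol, 7.22 to 7.84 in lean and 6.11 to 7.68 in obese rats. The mean with rosiglitazone was 3.70-fold above the next group. Acadvl, whose promoter is printed above, read 7.25, 7.50, 7.60, 7.22 and 7.41 with rosiglitazone and 5.82 to 6.13 with resveratrol. Its lean arrays lay between 5.87 and 6.03, and obese 3 at 4.77 was its lowest array. Slc25a20, the carnitine-acylcarnitine carrier, read 6.33 to 6.64 with rosiglitazone and at most 5.12 on any other array. In Acaa2 a lean array came near, since lean 4 read 9.38 and the lowest rosiglitazone array 9.65. The remaining members of the group lay between 1.02 (Acad11) and 1.85 (Acat1) log2 units above the next group, Acat1 being a thiolase that also acts on ketone bodies.

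Slc27a1 (FATP1), a fatty acid transporter of the plasma membrane, was 1 of the 8 oxidation members whose highest other group was lean. It read 7.62, 7.12, 7.58, 7.60 and 6.99 with rosiglitazone, and 5.88, 5.41, 6.78, 6.10 and 6.12 in lean rats. In obese rats it read 5.38, 4.77, 4.40, 5.08 and 4.76, and with resveratrol 5.50, 5.09, 5.20, 5.38 and 5.02. Every obese array was below every lean array, and the resveratrol arrays lay beside the obese ones.

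The pyruvate and citric acid cycle members ran from the pyruvate dehydrogenase complex (Pdha1, Pdhb, Dlat) and its inhibitory kinase Pdk1, through citrate synthase (Cs), all 3 subunits of isocitrate dehydrogenase 3 (Idh3a, Idh3b, Idh3g), Suclg1 and Sucla2, and succinate dehydrogenase (Sdha, Sdhb), to malate dehydrogenase (Mdh2). Pc, which makes oxaloacetate from pyruvate, belonged to them too. Pdhb had the widest margin, reading 8.03, 8.08, 8.01, 8.02 and 7.83 with rosiglitazone, 6.23 to 6.44 with resveratrol, 5.81 to 6.35 in lean and 5.51 to 6.32 in obese rats. Idh3a read 8.47, 8.71, 8.33, 8.49 and 8.34 with rosiglitazone and 6.74 to 7.11 with resveratrol, while lean and obese arrays lay together between 5.42 and 6.72. Its resveratrol arrays all stood above the lean and obese ones. Cs read 8.70, 8.96, 8.86, 8.68 and 8.76 with rosiglitazone and 7.20 to 7.76 with resveratrol, which overlapped the lean range of 6.97 to 7.57. The median SD of this group among the rosiglitazone arrays was 0.15, the lowest of the groups, against 0.23 over all clusters. The rule used these same arrays and limits their spread where a margin is narrow. No trait of the group is therefore read from this SD.

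Respiratory chain members came from complex I (Ndufv1, Ndufv2, Ndufa9), complex III (Uqcrc1, Uqcrc2, Uqcrfs1) and complex IV (Cox7b). Their margins were narrow, from 1.06 to 1.40 log2 units. Ndufv1, a core subunit that accepts electrons from NADH, read 7.44, 7.90, 7.50, 7.35 and 7.73 with rosiglitazone, and the highest other array was resveratrol 2 at 6.40. Uqcrc1 read 7.08, 7.71, 7.58, 7.40 and 7.63, against at most 6.29 elsewhere. Both were lowest on obese 3. Of 28 listed citric acid cycle and respiratory chain genes, 19 were measured and 11 were members (57.9%). This list too was chosen with earlier results known.

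Other mitochondrial members included Car5b, a mitochondrial carbonic anhydrase that supplies bicarbonate to Pc, and Prdx3, which removes hydrogen peroxide. Crls1 makes cardiolipin, the lipid of the inner membrane. Aadat, an aminotransferase of lysine and tryptophan breakdown, had the widest margin and read 6.13, 6.42, 5.83, 6.25 and 6.33 with rosiglitazone. It read 3.61 to 4.59 with resveratrol, 2.80 to 3.58 in lean and 2.25 to 3.76 in obese rats, which placed resveratrol between the untreated groups and rosiglitazone. All 14 members of the group kept the order obese, lean, resveratrol, rosiglitazone in their means, with the last place fixed by the rule. The rest of the order depended on obese 3 and on scaling. Without obese 3, 10 of 14 were lower in obese than in lean rats, with a median difference of -0.08. After quantile normalisation 12 of 14 were lower in obese rats, and 13 of 14 were higher with resveratrol than in lean rats.

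**Figure D2:**
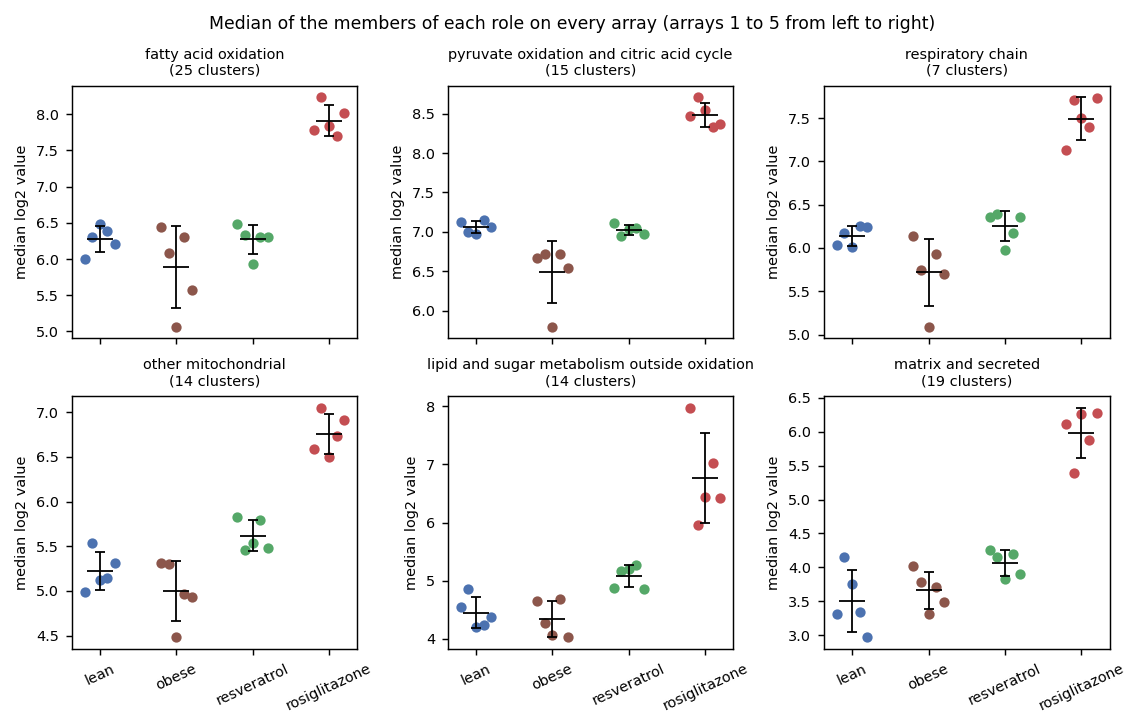
Each panel shows 1 role, each point the median log2 value of its members on 1 array, and the bars the mean ± SD of the 5 arrays. Rosiglitazone lies apart in all 6 panels, as chosen. Obese 3 is the lowest point of the 4 mitochondrial panels, at 5.07 for fatty acid oxidation and 5.80 for pyruvate oxidation and the citric acid cycle, and rosiglitazone 1 reaches 7.97 in the lipid and sugar panel.

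Outside oxidation, several members belonged to the making of fatty acids. Slc25a1 exports citrate from mitochondria, Me1 supplies NADPH for fatty acid synthesis, and Elovl6 lengthens the products. Me1 read 9.97, 9.89, 9.96, 9.80 and 9.63 with rosiglitazone. Lean arrays read 6.62 to 8.40, obese arrays 5.92 to 7.40 and resveratrol arrays 7.05 to 7.74. It was 5.14-fold above lean, the next group. Elovl6 read 8.89, 8.36, 8.55, 8.02 and 8.07 with rosiglitazone and 7.11, 5.98, 5.75, 6.07 and 5.77 with resveratrol. Its lean arrays read 3.66, 5.90, 3.85, 3.94 and 4.31 and its obese arrays 5.31, 5.40, 3.95, 5.12 and 3.89. Lean 2 and resveratrol 1 stood above the rest of their groups. Slc2a4 (GLUT4), the insulin-responsive glucose transporter, read 5.22, 5.67, 5.38, 4.99 and 5.31 with rosiglitazone and at most 4.43 elsewhere.

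Some members of this group varied among the rosiglitazone arrays themselves. Angptl8, a secreted regulator of lipoprotein lipase, read 8.33 on rosiglitazone 1 and 5.50, 5.74, 6.42 and 5.55 on the others. Pnpla3, a lipase of lipid droplets, read 8.26, 6.01, 6.69, 7.62 and 7.03. Rosiglitazone 1 was thus the highest for both. Ces1a, a carboxylesterase, read 5.56, 3.23, 5.97, 2.63 and 4.10, a spread of more than 3 log2 units, while its 15 other arrays lay between 1.47 and 2.31. Cyp4b1, a cytochrome P450, was by contrast even, at 8.99 to 9.25.

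The matrix and secreted members included the largest difference over the next group. Cilp, a secreted protein of cartilage and connective tissue, read 7.33, 6.96, 7.97, 5.59 and 8.01 with rosiglitazone. It read 4.08, 4.25, 2.82, 3.62 and 3.07 with resveratrol, and 2.74 to 3.68 on the lean and obese arrays. The difference was 12.1-fold over resveratrol, with rosiglitazone 4 the lowest of its group. P4ha3, a prolyl hydroxylase of collagen, read 5.88, 5.40, 6.77, 5.94 and 6.27 with rosiglitazone and between 2.49 and 3.27 on all other arrays. Lrrc15, a membrane protein found on activated fibroblasts, read 5.21, 3.32, 5.49, 4.40 and 5.23, against at most 2.57 elsewhere.

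Prg4 (lubricin) read 6.16, 7.64, 6.26, 7.59 and 7.28 with rosiglitazone, and its pattern among the arrays was unlike that of Cilp. Aspn, a small leucine-rich proteoglycan that binds collagen, read 8.08, 7.21, 8.95, 6.41 and 8.20. Its gap was narrow, since lean 2 reached 6.34. Col8a1 and Ltbp2 are structural or growth factor-binding matrix proteins, Loxl1 crosslinks elastin, and Ccn2 and Ccn5 are matricellular proteins. Ccn2 (CTGF) read 5.17, 5.39, 5.80, 5.55 and 5.53 with rosiglitazone and at most 4.55 elsewhere. The median SD of the 19 members among the rosiglitazone arrays was 0.67, compared with 0.20 for the 61 mitochondrial members. The rule allows a wide spread of these arrays only where the margin is wide, so the SDs are not free of the choice. The median margin was 1.58 for the matrix and 1.26 for the mitochondrial members. Rosiglitazone 2 was the highest array for 40 of the 61 mitochondrial members and the lowest for 8 of the 19 matrix members.

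**Figure D3:**
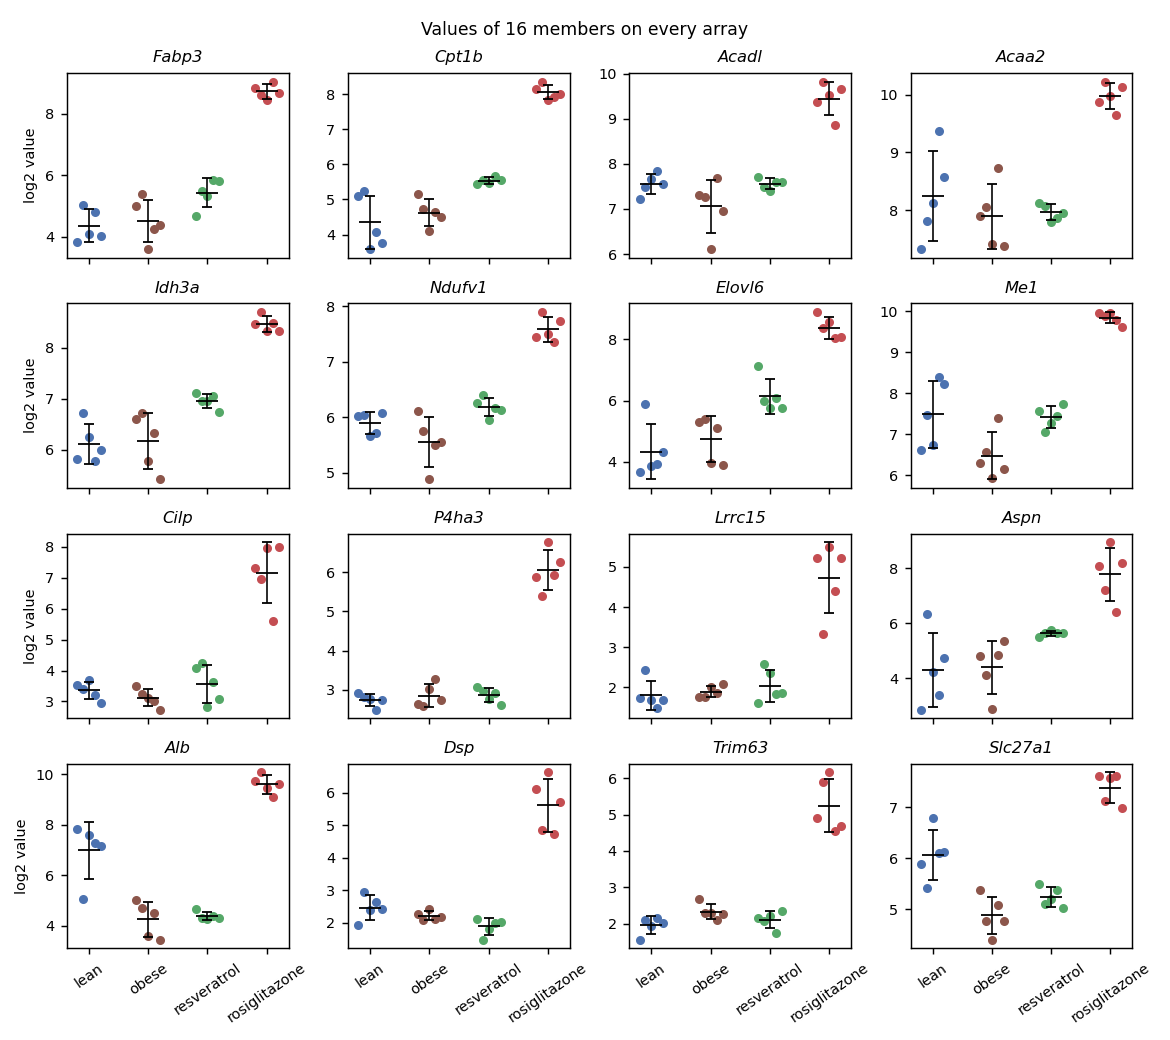
Log2 values of 16 members on every array, with arrays 1 to 5 from left to right within a group and bars for the mean ± SD. Fabp3, Cpt1b and Me1 are tight with rosiglitazone, whereas Cilp, Lrrc15 and Aspn spread over more than 2 log2 units; in Alb and Slc27a1 the lean mean lies well above those of obese and resveratrol.

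Among members that were not grouped, Alb (serum albumin) had the largest difference from obese. It read 9.74, 10.08, 9.46, 9.09 and 9.60 with rosiglitazone and 7.84, 5.05, 7.60, 7.27 and 7.17 in lean rats. In obese rats it read 5.04, 4.72, 3.60, 4.50 and 3.45, and with resveratrol 4.65, 4.32, 4.28, 4.40 and 4.33. The rosiglitazone mean was 40.4-fold above obese and 6.10-fold above lean, and lean 2 lay beside the highest obese array. Vat1l read 5.58, 5.13, 5.22, 4.85 and 4.91 with rosiglitazone and at most 2.38 elsewhere. Ptprn, a protein of secretory granules, read 5.08 to 5.86 against at most 3.34. The margins of the 27 members without a group ran from 1.03 to 3.17, those of the 51 without a symbol from 1.002 to 2.93, and those of the 5 with several symbols, which cannot be tied to 1 gene, from 1.05 to 1.20.

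Dsp (desmoplakin, a protein of desmosomes) and Trim63 (MuRF1, a ubiquitin ligase known from muscle) are genes of other tissues. Dsp read 6.11, 4.86, 6.63, 4.72 and 5.72 with rosiglitazone and at most 2.94 elsewhere. Trim63 read 4.91, 5.90, 6.17, 4.55 and 4.70, against at most 2.68. Both were highest on rosiglitazone 3. Rosiglitazone 3 also carried more signal of skeletal muscle and of keratinocytes. The mean of 7 muscle markers was 5.83 on that array, against 2.42 to 2.81 on the other 4 rosiglitazone arrays, 2.66 to 4.37 in lean, 2.61 to 3.07 in obese and 2.53 to 2.87 with resveratrol. The mean of 5 keratinocyte markers, Dsp among them, was 5.31 on that array and 2.67 to 3.19 on the other 4. Without rosiglitazone 3, 168 of the 177 members still met the rule, 58 of 61 mitochondrial and 18 of 19 matrix members. Leaving out a rosiglitazone array cannot break the order of the arrays, so only the difference of the means could lose a member. Leaving out any other rosiglitazone array kept 165 to 172 members. The part of the muscle and keratinocyte signal in the members' values was therefore not tested by this count.

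The other marker lists were read in the same way. The 6 measured adipocyte markers averaged 10.3 to 10.6 with rosiglitazone, inside the 9.78 to 10.8 of the other groups, and Adipoq, which defines fat cells, averaged 10.9 ± 0.05. Fibroblast markers averaged 6.59 to 7.97 with rosiglitazone and 6.59 to 8.82 elsewhere. Col1a1, the main collagen of fibroblasts, averaged 9.12 ± 0.75 with rosiglitazone and 10.2 in each other group (SD 0.47 to 1.11). Col3a1 and Lum were also lowest with rosiglitazone. Dcn averaged 9.48 ± 0.26 with rosiglitazone and 9.56 ± 0.34 in obese rats, and Pdgfra 7.03 ± 0.40 and 7.10 ± 0.54. Pi16 averaged 5.25 ± 0.75 with rosiglitazone, 5.10 ± 0.39 with resveratrol, 4.95 ± 0.87 in lean and 4.14 ± 0.26 in obese rats. Endothelial markers averaged 5.61 to 6.01, against 5.89 to 6.63 elsewhere. Of these, Emcn averaged 6.00 ± 0.22 with rosiglitazone and 7.26 ± 0.22 in obese rats, while Vwf averaged 5.61 ± 0.29 and 4.56 ± 0.21. Macrophage markers averaged 5.40 to 5.96, within the range of 4.72 to 6.40 elsewhere. The part of these other cell types in the members' values was not tested.

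The differences among lean, obese and resveratrol were not part of the rule and could be tested. The values of these groups did enter it, since every mean and array had to lie below rosiglitazone. The rosiglitazone arrays also entered the spread that the model used, so the tests are not free of the choice. A linear model of all 36685 clusters was fitted with limma and adjusted by the Benjamini-Hochberg method. Between obese and lean, 3 of 177 members were called at an adjusted p under 0.05, all lower in obese rats; 0.0654% of all clusters were called lower and 0.0191% higher. They were Alb, which fell by 2.73 log2 units (SE 0.40, limma adjusted p = 0.0115), Slc27a1, which fell by 1.18 (SE 0.22, limma adjusted p = 0.0375), and a cluster without a symbol, number 17649706, which fell by 1.43 (SE 0.24, limma adjusted p = 0.0225). None of these calls remained when only the lean and obese arrays were fitted.

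Of the 61 mitochondrial members, 56 had a lower mean in obese than in lean rats, with a median difference of -0.32 log2 units. The size of this difference depended on obese 3, without which it was -0.16 and 48 of 61 were lower. After quantile normalisation it was -0.20, with 53 of 61 lower. Among all clusters 42.9% were lower, and among clusters at or above the median level, where 175 of the members lay, 61.7%. Without adjustment, 38 of 177 members (21.5%) were lower at p under 0.05, compared with 5.83% of all clusters and 10.7% of those at or above the median level, and 9 were higher, compared with 7.53% of all clusters. Of the matrix members, 13 of 19 had a higher mean in obese than in lean rats, with a median difference of 0.09. Among all clusters 57.1% were higher, and 38.3% of those at or above the median level. When each array was centred on its median, the count became 10 of 19 and the median difference 0.016. Without lean 1 it was 9 of 19, so no direction is read for the matrix group.

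Between resveratrol and obese, 0 of 177 members were called by limma, and 0 of all clusters (0%). At an unadjusted p under 0.05, 93 members (52.5%) were higher with resveratrol and 0 lower. The shares of all clusters were 13% and 12.1%, and among those at or above the median level 24.4% and 8.26%. The mean was higher with resveratrol for 160 of 177 members, with a median difference of 0.48, compared with 46.1% of all clusters and 67.4% of those at or above the median level. After quantile normalisation 156 members were higher, with a median of 0.35, compared with 53.6% of all clusters. When each array was centred on its median, 170 were higher, with a median of 0.61, compared with 61.3% of all clusters. The absence of calls depended on single obese arrays: without obese 1, 53 members (29.9%) were called higher with resveratrol, as were 4.82% of all clusters. Without obese 4, 33 members (18.6%) were, as were 3.22% of all clusters. The median difference of the same members between rosiglitazone and obese was 1.81, a value fixed in part by the rule, and the obese arrays are shared by the comparisons.

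Between resveratrol and lean, 2 members were called, 1 in each direction, against 0.191% of all clusters higher and 0.0981% lower. Cyp4b1 rose by 1.66 log2 units with resveratrol (SE 0.33, limma adjusted p = 0.0433). It read 7.40, 7.30, 6.55, 7.73 and 7.61 with resveratrol and 5.71, 6.74, 5.75, 5.03 and 5.07 in lean rats, so that lean 2 overlapped the resveratrol arrays. Alb fell by 2.59 (SE 0.40, limma adjusted p = 0.0391). Both calls were lost in 9 of the 10 fits that left out 1 array, and 23 members were called without lean 2. Of these, 21 (11.9%) were higher with resveratrol, as were 2.1% of all clusters in that fit. Without adjustment 53 members (29.9%) were higher and 4 lower, compared with 7.93% and 5.55% of all clusters.

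**Figure D4:**
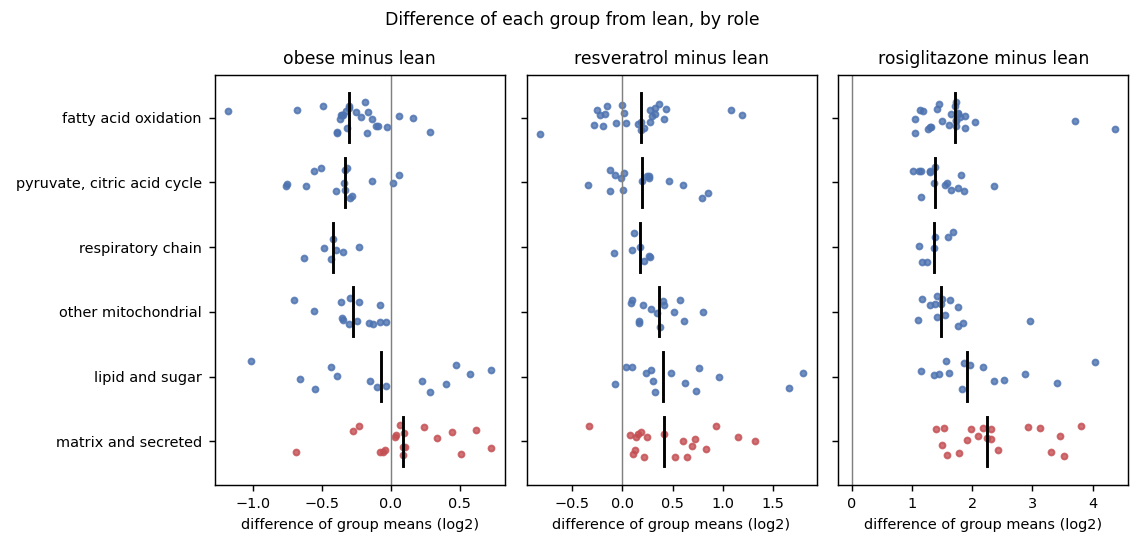
Difference of the group means from lean in log2 units for the members of 6 roles, with 1 point per cluster and a black line at the median of each role. Mitochondrial roles lie left of 0 in obese rats with medians from -0.42 to -0.28, matrix members lie around 0.09, and all points lie right of 1 with rosiglitazone because the rule chose them so.

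Genes of the same pathways that are no members were read from lists. Of 122 such genes, 31 rose and 2 fell with rosiglitazone against obese by limma, where 8.9% of all clusters were called higher and 6.12% lower. Against resveratrol, 13 rose and 2 fell, where 1.26% and 0.946% of all clusters were called. These 15 calls became 27 when only the treatment groups were fitted and 7 to 12 on leaving out 1 array, with 7 without resveratrol 2, 8 without resveratrol 4, and 9 without resveratrol 3, resveratrol 5 or rosiglitazone 1. Listed genes that are members were left out of these counts, which are therefore not counts of the whole lists. Of the 122 genes, 100 lay at or above the median level of all clusters. The shares given are of clusters at every level, and none was taken among the brighter clusters for these contrasts. The lists were chosen with earlier results known.

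In the citric acid cycle and respiratory chain list, 7 of 8 genes outside the members rose against obese, and their median difference was 1.12, against -0.08 over all clusters. Atp5f1a, the alpha subunit of ATP synthase, averaged 9.54 ± 0.13 with rosiglitazone and 8.23 ± 0.28 in obese rats, a rise of 1.30 (SE 0.13, limma adjusted p = 3.11e-06). Cyc1 (cytochrome c1) rose by 1.68 (SE 0.18, limma adjusted p = 5.11e-06) and Atp5f1b by 1.41 (SE 0.19, limma adjusted p = 9.28e-05). The other 4 were Sdhd, Cox4i1, Cox5b and Tfam, a factor of mitochondrial DNA. Esrra did not pass the test.

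In the oxidation list 8 of 19 rose. They were the peroxisomal enzymes Ehhadh (1.79, SE 0.30, limma adjusted p = 0.000603) and Hsd17b4 (1.36), the peroxisomal transporters Abcd2 (0.81) and Abcd3 (0.84), Etfb (1.04), Ech1 (0.98), Acot3 (0.81) and Bdh1 (1.82). In fatty acid synthesis 5 of 10 rose: Acly, which splits exported citrate, by 1.9995 (SE 0.48, limma adjusted p = 0.00957), the desaturases Scd by 0.94 and Scd2 by 1.27, Thrsp by 0.58 and Insig1 by 1.15. In triglyceride synthesis 3 of 11 rose, namely Agpat3, Dgat1 and the glycerol channel Aqp7.

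In the brown and beige fat list 4 of 19 rose. Cidea, a lipid droplet protein, averaged 10.3 ± 0.13 with rosiglitazone, 9.33 ± 0.11 with resveratrol and 8.35 ± 0.86 in obese rats, and rose by 1.91 against obese (SE 0.34, limma adjusted p = 0.00102). Ppargc1a, the coactivator of mitochondrial biogenesis, rose by 0.75 (SE 0.16, limma adjusted p = 0.00376). Ppara rose by 1.61 and the amino acid transporter Slc36a2 by 1.95. Ucp1, the uncoupling protein that defines thermogenic fat, averaged 1.57 ± 0.17 with rosiglitazone and 1.77 ± 0.33 in obese rats, and did not pass the test.

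Of 24 measured genes of the PPAR gamma and lipid storage list, Slc2a4 was the 1 member (4.17%, against 0.816% of all clusters with 1 symbol). Of the 23 others 2 rose, a share close to the 8.9% of all clusters called higher, a share not matched for level. These were Pnpla2, the lipase that starts the breakdown of triglyceride, by 0.56 (SE 0.13, limma adjusted p = 0.00795), and Aqp7 by 0.73 (SE 0.20, limma adjusted p = 0.0187). Of the textbook targets of the receptor, Fabp4, Lpl and Cd36 did not pass the test. Fabp4 averaged 11.2 ± 0.04 with rosiglitazone and 11.3 ± 0.10 in obese rats, Lpl 11.4 ± 0.09 and 11.2 ± 0.25, and Cd36 10.7 ± 0.11 and 10.7 ± 0.14. The highest value in the table was 12.5, so these genes lay near the upper end of the scale in every group, and the part of that limit was not tested.

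**Figure D5:**
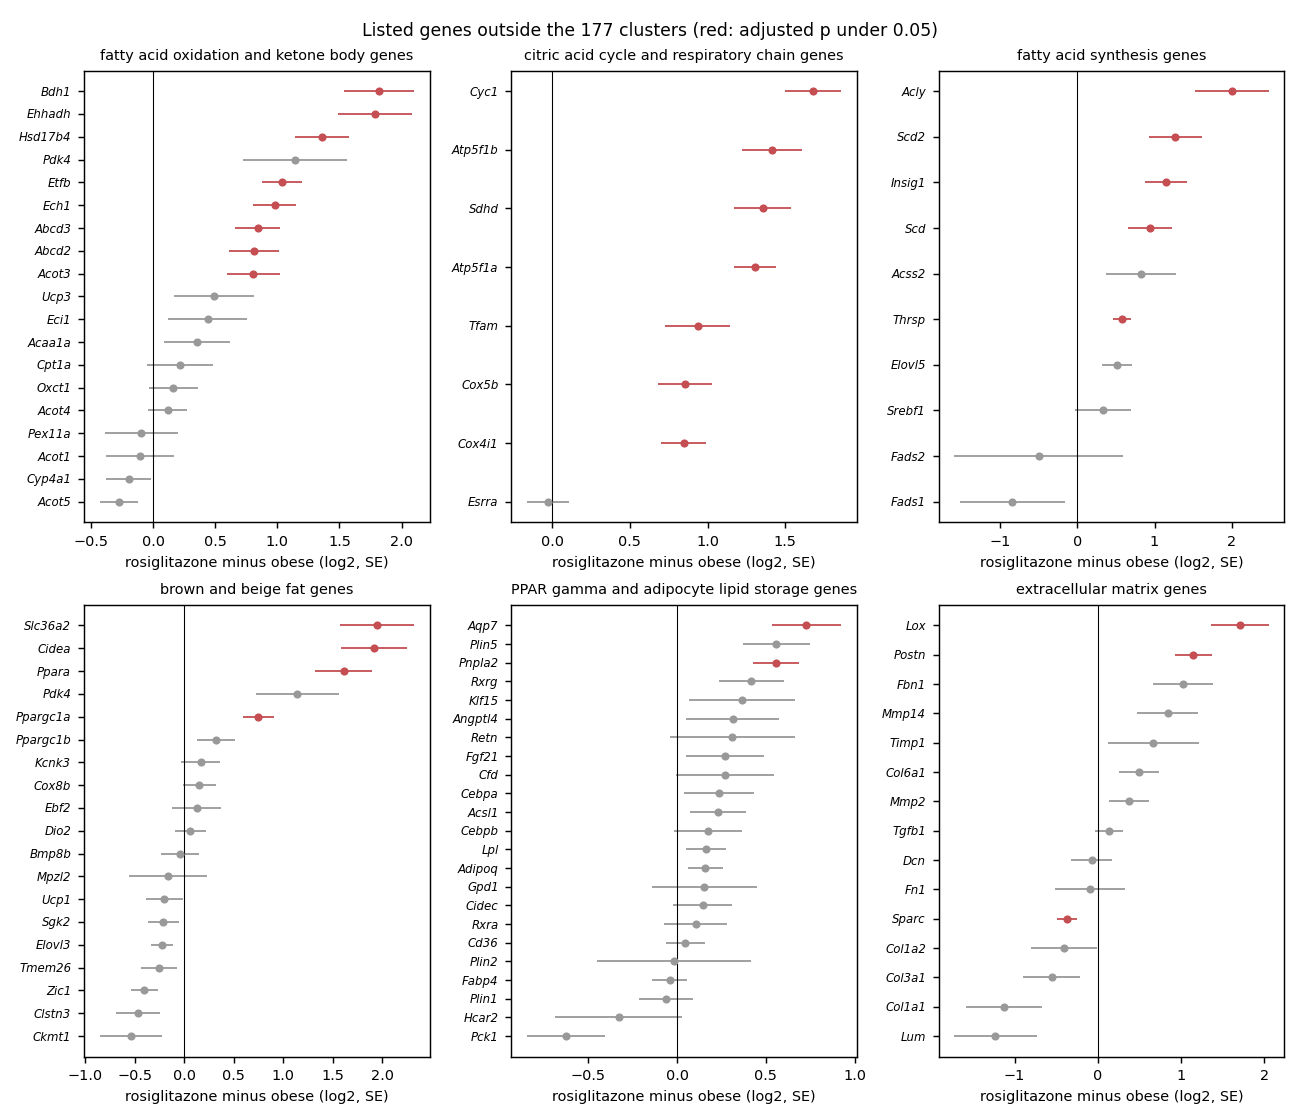
Log2 difference of rosiglitazone from obese with its SE for listed genes outside the 177 clusters, in 6 lists; red points passed limma at an adjusted p under 0.05. In the citric acid cycle and respiratory chain panel 7 of 8 points are red and right of 0, while in the PPAR gamma and lipid storage panel 2 of 23 are.

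In the matrix list 2 of 15 rose and 1 fell. Lox, which crosslinks collagen, rose by 1.71 (SE 0.35, limma adjusted p = 0.00316) and Postn (periostin) by 1.15 (SE 0.22, limma adjusted p = 0.00196). Sparc fell by 0.37 (limma adjusted p = 0.0474), a call that was lost when each array was centred on its median (-0.20, limma adjusted p = 0.363). Among 22 inflammation and macrophage genes, none was a member. Ccl2, a chemokine that attracts monocytes, rose by 1.95 (SE 0.40, limma adjusted p = 0.00364), and Gpnmb, a gene of lipid-laden macrophages, fell by 1.32 (SE 0.41, limma adjusted p = 0.0352).

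The edge of the rule divided clusters of nearly equal values. Mipep, cluster 17880291 and Hibch were just inside at mean differences of 1.002, 1.002 and 1.007. Cluster 17867097, cluster 17787090 and Aldh9a1 were just outside at 0.999, 0.997 and 0.996. On the order of arrays, Srpx2, cluster 17787093 and Itgbl1 passed by 0.013, 0.022 and 0.032. Cluster 17633601, Thbs4 and Rdh12 failed by overlaps of -0.026, -0.031 and -0.035, although the mean of Thbs4, a matrix glycoprotein, was 2.28 above the next group.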

How the data were processed

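Total RNA from subcutaneous tissue was hybridised to 20 arrays, 100 ng per sample. The authors deposited log2 values made with RMA, per the submitters' processing notes; the scale was judged from their range (-0.16 to 12.5). RMA corrects background, normalises arrays and summarises probes. No source used here gives its settings or the strip and scan of an array, and batches were therefore not tested. All 36685 clusters were kept, with 0 missing values. Precision is limited by the number of arrays.

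The members and the gene lists were chosen with earlier results of these data known. Members were found by the rule from group means and single arrays. A linear model with the 4 groups as terms used all 20 arrays (limma 3.58.1 with lmFit and eBayes, 19.8 degrees of freedom, R 4.3.3), and p-values were adjusted by Benjamini-Hochberg over all clusters and called under 0.05. The code was tested on simulated data. Symbols came from GEO's platform annotation; a gene with several clusters on a list was represented by the brightest one. Genes were named by a rule (the 20 members with the widest margins, members on the lists, members called in other contrasts, clusters at the edge of the rule, and the 3 listed genes per list with the smallest adjusted p). Further members and listed genes were named after their values were seen, to show each role. Marker lists were averaged over genes per array. Alternatives were other scalings, thresholds of the rule, filters, priors, weights, a replicate block and leaving out each array. Sequences came from RefSeq (GRCr8). Plots used Python 3.11.15 with matplotlib 3.10.9.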

Additional observations from a re-analysis of the deposited data

Results flagged for a closer look

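In 5 cases 1 array lay far from the other 4 of its group, by Dixon's test at its 95% level (a gap over 0.71 of the range). Chance flags about 1 in 20 groups, and 112 groups were looked at, so about this number is what chance gives. On obese 3 the median of the pyruvate and citric acid cycle members was 5.80, and 6.54 to 6.72 on the other obese arrays. Lean 2 accounted for 3 cases. Lrrc15 read 2.42 on it and 1.49 to 1.75 on the other lean arrays, Alb read 5.05 against 7.17 to 7.84, and Elovl6 read 5.90 against 3.66 to 4.31. On resveratrol 1, Elovl6 read 7.11, and 5.75 to 6.07 on the other resveratrol arrays.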

How the results depend on the processing

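The number of members followed the rule's minimum: 58 at 1.5 log2 units, 516 at 0.5 and 685 with no minimum. Quantile normalisation gave 148 clusters, of which 145 are among the 177, and centring each array gave 208, which include all 177. Centring moved the median of all clusters by 0.17 for rosiglitazone against obese and by 0.13 for resveratrol against obese. Leaving out 1 array gave 173 to 199 members.

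Between obese and lean, the 3 called members became 1 with array weights and 0 with only those groups fitted, and 0 to 4 on leaving out 1 array (0 without obese 5, and 1 without lean 3, lean 5 or obese 3). Between resveratrol and obese, 0 became 1 on centring and 5 with clusters below the median level left out, and 0 to 53 on leaving out 1 array. Between resveratrol and lean, 2 became 0 on centring, 7 without the dimmer clusters, 20 with array weights and 0 with only those groups fitted, and 0 to 23 on leaving out 1 array (23 without lean 2, 0 in the other 9 fits). Of the listed genes outside the members, 33 were called between rosiglitazone and obese (30 to 37 on leaving out 1 array). Between the treatments 15 were called, 27 with only those groups fitted, and 7 to 12 on leaving out 1 array. The causes were not tested.

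With the replicate number as a block, the counts were 3 for obese against lean, 0 for resveratrol against obese, 4 for resveratrol against lean, and 33 and 15 for the listed genes. Deviations of same-numbered arrays correlated over 0.1 in 3 of 30 pairs (-0.44 to 0.32), so the numbers were not taken to pair samples. For single named genes, 522 values were counted as unchanged. These were margins that moved by less than the SD of the rosiglitazone arrays, and tested differences that kept their direction and side of the threshold. Another 37 lost the call, 9 gained it, 13 margins moved by more than that SD and 0 reversed. The side of the rule's minimum was not part of this count. The margin of Cpt2 was 0.99 after quantile normalisation, just under the minimum. That scaling kept 10 of 15 pyruvate and citric acid cycle members and 5 of 7 respiratory chain members.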

Other observations

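The mammary epithelium markers, 9 of which were measured, varied widely in groups without rosiglitazone. Their mean ranged from 1.76 to 7.54 in lean and from 1.96 to 6.52 in obese rats. With rosiglitazone it was 1.98 to 4.44 and with resveratrol 1.87 to 2.14. The 7 brown adipocyte markers averaged 3.37 to 3.54 with rosiglitazone and 2.69 to 3.23 on the other arrays, with the higher mean carried by Cidea (10.3 against 8.35 in obese rats) and Slc36a2 (5.30 against 3.35). The other 5, Ucp1, Dio2, Elovl3, Cox8b and Zic1, averaged 1.33 to 2.26 with rosiglitazone and 1.51 to 2.27 in obese rats. For Slc36a2 the highest lean array, at 6.19, exceeded the highest rosiglitazone array, at 6.07. The pair of measured Schwann cell markers averaged 5.43 to 5.99 with rosiglitazone and 5.91 to 6.57 elsewhere, and the pair of smooth muscle markers 5.07 to 6.47 and 5.46 to 6.68. The SD of all values within an array was 1.66 to 1.89 in obese rats, 1.82 to 1.95 in lean rats, 1.90 to 1.93 with resveratrol and 1.93 to 1.98 with rosiglitazone. Its part in the members' differences was not tested beyond the scalings above.

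Among the 51 members without a symbol, cluster 17796192 had the widest margin, averaging 6.33 ± 0.30 with rosiglitazone, 3.33 ± 0.17 with resveratrol, 3.40 ± 0.81 in lean and 2.75 ± 0.19 in obese rats. Cluster 17882165 came next and was uneven, at 5.90 ± 1.53 with rosiglitazone and 2.97 ± 0.41 with resveratrol.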
